A study of Mus musculus with 18 samples.

Results

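The samples described here are the 12 labeled as cortex around the infarct 7 days after middle cerebral artery occlusion (MCAO) or as sham, out of 18 in the series. They were chosen by their titles and lie on 6 of 9 arrays, with 3 arrays in each group. Each array held 2 fractions of the RNA of 1 sample. RNA bound by an antibody against N6-methyladenosine (m6A) was labeled with Cy5 (IP), and the unbound supernatant was labeled with Cy3 (Sup). Both fractions had been treated with RNase R, an enzyme that degrades linear RNA. All mice were C57BL/6J, 10 weeks old and between 23 and 26 g. In the 7d group the distal middle cerebral artery had been closed permanently by electrocoagulation, with a short closure of both common carotid arteries. Sham mice were operated on in the same way but kept an unclosed artery, and the day on which their cortex was taken is not given in the sources used here. The labels call the samples biological replicates. The source name of the Sup sample of sham replicate 1 mentions infarction while its title says sham, and the title was followed. The 2 groups were hybridized on different slides, so slide and group cannot be told apart in any value below, and the number of arrays limits the precision.

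Circular RNAs (circRNAs) form when a splice donor joins an upstream acceptor, so that exons or introns of a host gene close into a ring without free ends. They resist exonucleases and are abundant in the brain, above all in neurons and at synapses. m6A is written on RNA by a complex of METTL3 and METTL14, removed by FTO and ALKBH5, and bound by proteins of the YTH family, and on circRNAs it has been tied to export, decay and translation. After a cortical stroke the tissue that borders the infarct survives and is remodeled, with gliosis, new vessels and changed synapses. The comparison asks which circRNAs of that tissue carry more or less m6A, and which are more or less abundant, than in sham cortex. In bulk tissue, fewer cells of a type and less RNA per cell cannot be told apart.

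Here the m6A level of each circRNA is the percentage that IP made up of its summed IP and Sup signals, and expression was the log2 of the sum, with each channel scaled on spike-in RNA. A circRNA was tested if both channels were well above background on at least 3 of the 6 arrays, which held for 11463 circRNA probes and left out 2773. The median level over the tested circRNAs was 39.2%, 36.6% and 36.9% on 7d replicates 1, 2 and 3, and 39.4%, 37.2% and 30.6% on sham replicates 1, 2 and 3. Sham replicate 3 lay below the other 5 arrays, which were close to each other. The group means were 37.6% ± 1.39 in 7d and 35.7% ± 4.58 in sham (SD, n = 3), a difference of 1.83 percentage points (two-sided exact permutation test, p = 0.9, where 0.1 is the smallest p that 3 arrays against 3 can give). The difference was -0.734 percentage points without sham replicate 3, 3.68 without sham replicate 1 and 1.02 without 7d replicate 1. After normexp the groups of medians did not overlap, with differences of 4.35 percentage points with an offset of 50 and 6.80 without (exact permutation p = 0.1 for each). The share of circRNAs with a level above 50% was 26%, 19.7% and 19% on the 7d arrays, and 24.6%, 22.1% and 11.5% on the sham arrays. Median log2 expression lay between -3.28 and -2.98 in 7d and between -3.20 and -3.06 in sham.

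**Figure D1:**
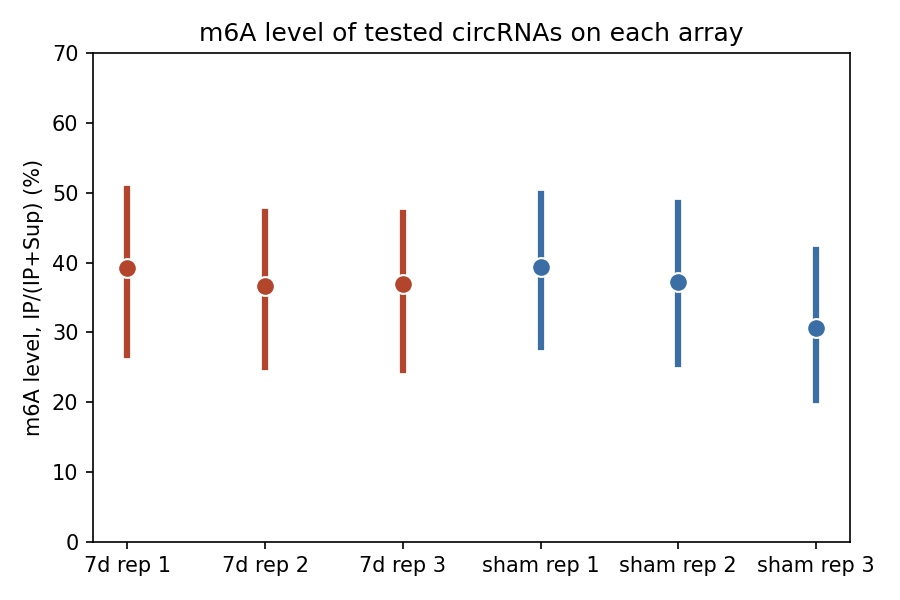
The m6A level in percent (vertical axis) of the tested circRNAs is drawn for the 3 arrays of 7d and the 3 arrays of sham (horizontal axis), with the median as a point and the lower to upper quartile as a bar. Sham replicate 3, with a median of 30.6%, lies below the other arrays, whose medians run from 36.6% to 39.4%.

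Calls required a fold change of more than 1.5 with an unadjusted limma P under 0.05. By this rule 91 circRNAs were hypermethylated (0.794% of those tested) and 90 were hypomethylated (0.785%) in 7d, 1.58% together. None (0%) passed Benjamini-Hochberg adjustment in limma or in the methods' t-test, and 634 circRNAs (5.53%) had an unadjusted limma P below 0.05. The lowest limma adjusted P was 0.467. Among the hypermethylated circRNAs the median fold change was 1.67, and the 3 arrays of 7d lay above the 3 of sham for 73 of the 91, where 7.09% of all tested circRNAs did. Among the hypomethylated ones the median fold change was 1.62, and the groups did not overlap for 82 of the 90, where 5.08% of all did in that direction. Calls and overlap rest on the same values, so the lack of overlap among the calls is largely set by the calling rule. Of the calls, 4 of the 91 and 7 of the 90 had a group with no IP well above background, and without them the median fold changes were 1.67 and 1.62.

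The balance of the 2 directions depended on the scaling and on single arrays. The hypermethylated share of the calls was 50.3%, against 39.8% with all spike-in probes, 25.9% with each array centered on its median, 24.1% after within-array loess, 95.7% after normexp with an offset of 50 and 99.5% after normexp without an offset. Without sham replicate 3, 46 circRNAs were hypermethylated and 168 hypomethylated. Without sham replicate 1, the counts were 511 and 100, and without 7d replicate 1 they were 64 and 151.

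Names could be given to 55 of the circRNA probes, those of the circRNAs that the study lists for its group comparisons, and the others are known here only by probe identifier. The host gene says where a circRNA comes from and not what the ring itself does. The study selected 20 of the named circRNAs for 7d against sham on these same arrays, so their direction is not independent evidence, and 10 of the 20 had both channels bright enough to be tested. Of these 10, 8 had IP well above background in both groups, and they were called, 4 as hypermethylated and 4 as hypomethylated, where 1.58% of all tested circRNAs were, a share that says nothing about circRNAs selected on this comparison. The other 2, from Prdm10 and Cdk8, passed the filter on dim signals only through sham, where they are high, so that their calls were largely set by it.

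The lowest adjusted P of these 10 belonged to mmu_circRNA_28040, from exons of Uggt2 on chromosome 14. Uggt2 encodes a glucosyltransferase that tags misfolded glycoproteins in the endoplasmic reticulum. Its level was 42.3%, 35.0% and 42.5% on the 7d arrays and 18.6%, 18.4% and 16.5% on the sham arrays, with IP well above background on 2 of the 3 sham arrays. The groups did not overlap, and the level was higher in 7d by 2.2-fold (log2 change 1.16, SE 0.13, limma adjusted P = 0.467), with an IP change of 0.83 and a Sup change of -0.78 in log2. After normexp with an offset of 50 the level change was 0.39 in log2, under the fold threshold. Its expression was not called (log2 change -0.33, limma adjusted P = 0.219).

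In 3 others the level was called higher and expression lower. The circRNA of Creb3l3 (mmu_circRNA_22281, chromosome 10), whose host encodes a membrane-bound transcription factor best known from liver and intestine, had levels of 41.7%, 66.9% and 51.4% on the 7d arrays and 24.2%, 25.5% and 11.9% on the sham arrays. This was 2.69-fold (log2 change 1.43, SE 0.32, limma adjusted P = 0.833) higher, with sham replicate 3 the lowest array. Its log2 expression was -4.66, -5.64 and -5.06 on the 7d arrays and -3.71, -3.88 and -2.88 on the sham arrays, lower by 3.11-fold (log2 change -1.64, SE 0.32, limma adjusted P = 0.0633). The log2 change was -2.44 in Sup and -0.21 in IP, and Sup was well above background on 2 of the 3 arrays of 7d. After normexp the expression call was lost, at -0.13 with an offset of 50 and -0.90 without, and the level change with the offset was 0.58, under the fold threshold.

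The circRNA of Itgbl1 (mmu_circRNA_28128, chromosome 14), whose host encodes a secreted protein with repeats like those of integrin beta chains, had levels of 17%, 14.4% and 24.0% on the 7d arrays and 10.9%, 8.25% and 5.03% on the sham arrays. The level was higher by 2.4-fold (log2 change 1.24, SE 0.31, limma adjusted P = 0.833). Its log2 expression was -0.59, -0.55 and -1.50 on the 7d arrays and 0.92, 0.78 and 1.77 on the sham arrays, lower by 4.11-fold (log2 change -2.04, SE 0.33, limma adjusted P = 0.0633). Both channels were lower, with log2 changes of -2.22 in Sup and -0.80 in IP.

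Acly encodes ATP citrate lyase, which makes cytosolic acetyl-CoA for lipid synthesis and histone acetylation. Its circRNA (mmu_circRNA_24182, chromosome 11) had levels of 27.3%, 35.5% and 39.8% on the 7d arrays and 23.3%, 6.04% and 17.9% on the sham arrays, higher by 2.48-fold (log2 change 1.31, SE 0.48, limma adjusted P = 0.833). Sham replicate 2 was the lowest by far, and its expression stood out as well, with log2 values of -2.27, -2.76 and -2.58 on the 7d arrays and -1.74, 0.16 and -1.95 on the sham arrays. Expression was lower by 2.6-fold (log2 change -1.36, SE 0.50, limma adjusted P = 0.124). Without sham replicate 2 the log2 changes were 0.73 in level and -0.69 in expression, both still called. Without 7d replicate 2 they were 1.28 and -1.25, and without 7d replicate 3 1.20 and -1.34, with neither call kept. The level call was also lost after loess, at a log2 change of 1.08. The expression call was lost with all spike-in probes (-1.24), after normexp without an offset (-1.20) and in the methods' t-test (-1.68).

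The level of mmu_circRNA_19765 from Fam135a on chromosome 1, taken from the study's list for 7d against 3d, was called with the highest fold among circRNAs with separate groups, but it rested on few spots. Its spots on 7d replicate 1 and sham replicates 1 and 2 were marked as outliers and left out, so that 2 arrays of 7d, at 19.3% and 29.5%, stood against 1 of sham, at 5.38%. In the deposited table, where no spot is left out, the log2 level change was 0.94 in place of 2.15 and the call was lost, as it was after normexp without an offset and in the methods' t-test.

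Among hypomethylated circRNAs with IP measured in both groups and no overlap between them, that of Sytl5 (mmu_circRNA_45325, chromosome X) had the highest fold. Sytl5 encodes a synaptotagmin-like protein that binds Rab27 on secretory vesicles. Its level was 8.80%, 19.2% and 14.2% on the 7d arrays and 35.6%, 30.7% and 30.9% on the sham arrays. Its IP was well above background on 2 of the 3 arrays of 7d. The group means of the level were 14.1% ± 5.22 in 7d and 32.4% ± 2.8 in sham (SD, n = 3). The level was lower by 2.4-fold (log2 change -1.27, SE 0.27, limma adjusted P = 0.833). Its expression went the other way, with log2 values of -3.95, -3.44 and -3.35 on the 7d arrays and -4.78, -3.96 and -4.67 on the sham arrays, higher by 1.85-fold (log2 change 0.89, SE 0.26, limma adjusted P = 0.0851). The log2 change was 1.24 in Sup and -0.38 in IP. After normexp the level call was lost, at log2 changes of -0.06 with an offset of 50 and -0.40 without, and with the offset the expression call was lost too, at 0.53. After Sytl5 and Nln, the next 3 decreases under the same conditions were of unnamed probes, between 1.9-fold and 1.97-fold lower.

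The circRNA of Fam126b (mmu_circRNA_20158, chromosome 1), whose host belongs to a protein family that holds a phosphatidylinositol 4-kinase at the plasma membrane, had the same pattern at a smaller size. Its level was 14%, 10.9% and 11.3% on the 7d arrays and 18.6%, 29.4% and 19.7% on the sham arrays, lower by 1.84-fold (log2 change -0.88, SE 0.21, limma adjusted P = 0.833), and its IP was well above background on 1 of the 3 arrays of 7d. Its expression was higher by 1.53-fold (log2 change 0.61, SE 0.17, limma adjusted P = 0.0767). That call was lost without 7d replicate 2 (log2 change 0.57), 7d replicate 3 (0.53) or sham replicate 3 (0.53), after quantile normalization and after normexp.

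Dtnb encodes beta-dystrobrevin, part of the dystrophin-associated complex in neurons. Its circRNA (mmu_circRNA_006216, chromosome 12) had IP and Sup well above background on all 6 arrays. The level was 4.70%, 3.19% and 3.84% on the 7d arrays and 6.87%, 6.50% and 9.01% on the sham arrays, lower by 1.9-fold (log2 change -0.93, SE 0.19, limma adjusted P = 0.833). Expression was higher by 0.52 in log2 (limma adjusted P = 0.0934), a fold of 1.44 that stayed under the threshold.

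Nln encodes neurolysin, a metallopeptidase that cleaves neurotensin and other neuropeptides. Its circRNA (mmu_circRNA_018245, chromosome 13) had levels of 5.37%, 14.5% and 11.2% on the 7d arrays and 23.3%, 23.2% and 16.9% on the sham arrays, lower by 2.19-fold (log2 change -1.13, SE 0.36, limma adjusted P = 0.833), with no call in expression (log2 change 0.01, limma adjusted P = 0.977). The IP of this circRNA was well above background on 2 of the 3 arrays of 7d. Without sham replicate 2 the level change was -1.05 and not called.

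For 2 tested chromatin and transcription hosts, no 7d array had IP well above background. Cdk8 encodes a kinase of the Mediator complex. Its circRNA (mmu_circRNA_19402, chromosome 5) had computed levels of 17.8%, 9.91% and 3.85% on the 7d arrays and 27.3%, 30.9% and 22.5% on the sham arrays, and with the dim IP signals set to the lowest signal well above background the level was at least 1.90-fold lower in 7d (adjusted P of the fit 0.833). Its call was lost without sham replicate 2. Prdm10 encodes a zinc finger transcription factor. Its circRNA (mmu_circRNA_43936, chromosome 9) had computed levels of 7.99%, 6.63% and 7.52% on the 7d arrays and 26.2%, 19.6% and 14.8% on the sham arrays, and no fold can be given against the dim side. Its computed expression was lower in 7d, and as the sum includes the same dim IP, no size is given for it either. After normexp background correction, with or without an offset, the level changes of the Prdm10, Cdk8, Nln and Fam126b circRNAs had the opposite sign, as did the computed expression change of the Prdm10 circRNA with the offset, and none of these was called. The level calls of the Itgbl1, Acly and Dtnb circRNAs were kept after normexp with and without an offset.

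The 10 untested circRNAs of the same 20 had IP near background in at least 1 group. Those with higher computed levels in 7d came from Psme4, which encodes a proteasome activator, Orc3, a subunit of the origin recognition complex, Trmt44, a tRNA methyltransferase, Larp4b, an RNA-binding protein of the La family, Cnot6, a deadenylase of the CCR4-NOT complex, and 9330182L06Rik. No IP of these 6 was well above background in sham. The circRNA of Orc3 (mmu_circRNA_36627) had IP above background on all 3 arrays of 7d, at levels of 68.5%, 38.8% and 51.5% on the 7d arrays and 15.3%, 29.4% and 26.3% on the sham arrays, which is at least 1.47-fold higher in 7d. The bound was 1.49-fold for Psme4 (IP well above background on 1 array of 7d), 1.43-fold for Larp4b (2 arrays, with Sup on none) and 1.27-fold for Trmt44 (2 arrays), and no fold could be given for Cnot6 and 9330182L06Rik. For Psme4, Larp4b and Trmt44 the dim IP of 7d was taken as measured. Sup was well above background on 2 of the 3 arrays of 7d for Orc3 and Trmt44. In sham this held for Larp4b and Trmt44, also on 2 of the 3 arrays. That dim Sup was taken as measured too, so the bounds, that of Orc3 included, hold only as far as these dim signals do.

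The other 4 had lower computed levels in 7d, where no array had their IP well above background. Pcgf5 and Arid2 encode subunits of chromatin complexes, the first of a Polycomb repressive complex and the second of the SWI/SNF remodeler PBAF. The circRNA of Arid2 (mmu_circRNA_19150) had levels of 5.10%, 3.99% and 4.84% on the 7d arrays and 21.3%, 13.5% and 13.1% on the sham arrays, at least 1.28-fold lower in 7d. That of Pcgf5 (mmu_circRNA_32468) had levels of 7.5%, 7.91% and 5.76% on the 7d arrays and 20%, 36.4% and 18.1% on the sham arrays, at least 1.35-fold lower. In both, IP was well above background on 2 sham arrays, and the dim sham IP was taken as measured, so the bounds hold only as far as it does. For Adgrb3, an adhesion receptor at excitatory synapses, the bound was 1.02-fold, with the same limit, as its IP was well above background on 2 sham arrays. For Zdhhc20, a palmitoyltransferase, no fold could be given. The computed levels of all 20 did not overlap between the groups, a direction that their selection on these arrays fixes.

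**Figure D2:**
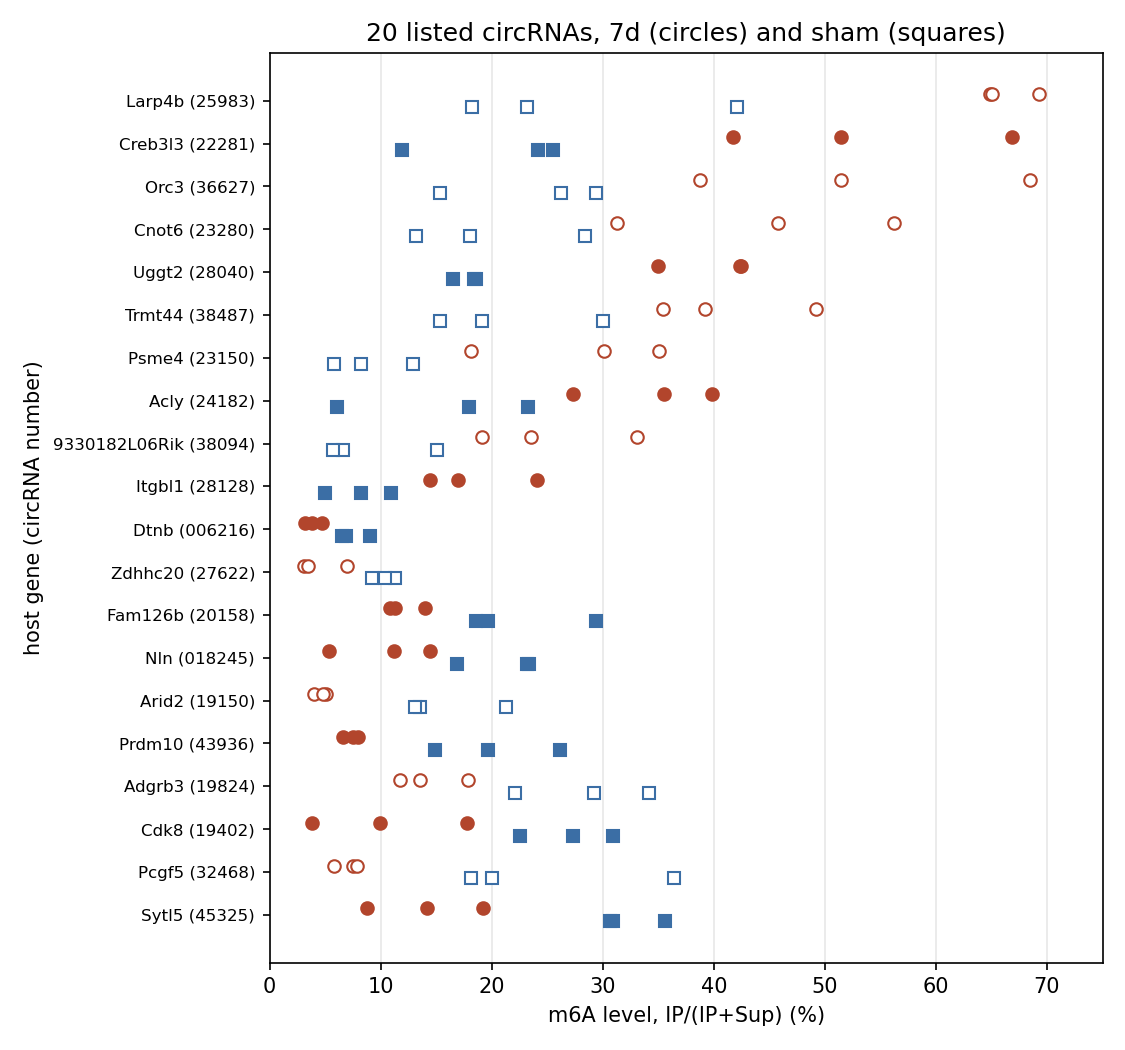
The m6A level in percent (horizontal axis) is drawn for 20 circRNAs that the study selected for this comparison, by host gene (vertical axis), with 7d arrays as circles and sham arrays as squares. Filled marks are the 10 circRNAs that passed the filter, of which Prdm10 and Cdk8 had IP well above background on no array of 7d, and open marks are the 10 that did not pass it. The marks of Sytl5, for example, lie at up to 19.2% in 7d and from 30.7% upward in sham.

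More circRNAs were called in expression than in the level. The level is a percentage and expression a sum without an upper limit, so the same fold threshold need not be equally strict for both. At the same thresholds 644 circRNAs were higher in 7d (5.62% of those tested) and 1031 were lower (8.99%), 14.6% together. None (0%) passed Benjamini-Hochberg adjustment in limma, where the lowest adjusted P was 0.0633, while 3 did in the methods' t-test, and 3337 (29.1%) had an unadjusted limma P below 0.05. The groups did not overlap for 526 of the 644 and 998 of the 1031, where 12.4% of all tested circRNAs lay above sham and 23.9% below it on all arrays. As for the level, the lack of overlap among the calls is largely set by the calling rule. The median fold change was 1.63 among those higher and 1.70 among those lower. The share of calls that were higher was 38.4%, against 58.1% with all spike-in probes, 50.5% after quantile normalization, 9.13% and 27.7% after normexp with and without an offset, 57.0% without 7d replicate 1 and 51.6% without sham replicate 3. The higher count was 1255 without 7d replicate 1, 991 without sham replicate 1 and 316 without 7d replicate 3, and the lower count was 645 without sham replicate 3. After adjustment 273 circRNAs were called with all spike-in probes, 598 with centered arrays, 530 after quantile normalization, 42 after normexp with an offset, 293 with the filter on all 6 arrays and 257 in the fit of all 9 arrays.

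Among the circRNAs that were lower in 7d, 3 named ones had sham replicate 3 far above the other 5 arrays. Uba6 encodes an E1 enzyme that activates ubiquitin and FAT10. Its circRNA (mmu_circRNA_38904, chromosome 5) had log2 expression of -2.53, -2.21 and -2.44 on the 7d arrays and -1.15, -1.20 and 1.47 on the sham arrays. All 3 arrays of 7d lay below all 3 of sham, and sham replicate 3 was highest. Expression was lower by 4.29-fold (log2 change -2.10, SE 0.63, limma adjusted P = 0.0898). Its level on that array was 7.69%, against 39.8% and 35.5% on the other sham arrays.

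The same order held for Glra2, a subunit of the glycine receptor, whose circRNA (mmu_circRNA_45965, chromosome X) had log2 expression of -0.99, -0.52 and -0.92 on the 7d arrays and 0.34, 0.43 and 2.21 on the sham arrays. This was lower by 3.50-fold (log2 change -1.81, SE 0.46, limma adjusted P = 0.0714). It also held for Kat6a, a histone acetyltransferase, whose circRNA (mmu_circRNA_42640, chromosome 8) was at -1.64, -1.12 and -1.60 on the 7d arrays and -0.63, -0.58 and 1.29 on the sham arrays, lower by 2.79-fold (log2 change -1.48, SE 0.47, limma adjusted P = 0.0980). Without sham replicate 3 the log2 changes were -1.22 for Uba6, -1.20 for Glra2 and -0.85 for Kat6a, all 3 still called. In the methods' t-test none of these 3 was called.

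Bmper encodes a secreted protein that binds bone morphogenetic proteins. Its circRNA (mmu_circRNA_43882, chromosome 9) was lower with no call in the level. Log2 expression was 2.8 and 1.62 on 7d replicates 2 and 3, with the spot on 7d replicate 1 left out, and 3.96, 4.03 and 4.46 on the sham arrays. This was lower by 3.89-fold (log2 change -1.96, SE 0.34, limma adjusted P = 0.0633), while the log2 level change was -0.26 (limma adjusted P = 0.938). Smaller decreases were called for the circRNAs of Dopey1, a protein of membrane traffic, at 1.56-fold and Mtrf1, a release factor of mitochondrial translation, at 1.57-fold. After normexp both calls were lost, and with an offset of 50 the change of Dopey1 had the opposite sign (log2 change 0.13). The Dopey1 call was also lost without 7d replicate 1 (log2 change -0.54). Without sham replicate 3 both fell under the fold threshold, at log2 changes of -0.48 and -0.47.

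Fewer of the named circRNAs were higher. Mid1 encodes a ubiquitin ligase on microtubules. Its circRNA (mmu_circRNA_45982, chromosome X) had log2 expression of -3.65, -2.05 and -2.65 on the 7d arrays and -4.30, -4.21 and -3.62 on the sham arrays, higher by 2.4-fold (log2 change 1.26, SE 0.38, limma adjusted P = 0.0903), although 7d replicate 1 lay inside the range of sham. Its level was 29.4%, 14.5% and 19.3% on the 7d arrays and 41.2%, 42.7% and 24.3% on the sham arrays, lower by 1.73-fold (log2 change -0.79, SE 0.32, limma adjusted P = 0.833), and the groups overlapped. The level call was lost without 7d replicate 2 (log2 change -0.55), 7d replicate 3 (-0.76), sham replicate 1 (-0.67) or sham replicate 2 (-0.65) and after normexp, and both calls were lost in the methods' t-test. The circRNA assigned to DQ715306 (mmu_circRNA_20066, chromosome 1) was higher by 1.56-fold (log2 change 0.65, SE 0.18, limma adjusted P = 0.0830), at log2 values of 5.05, 5.0 and 5.51 on the 7d arrays and 4.60, 4.65 and 4.37 on the sham arrays. That call was lost without 7d replicate 3 (log2 change 0.49) or sham replicate 3 (0.56) and after normexp.

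Among circRNAs without a name, the probe ASCRP4008249 had log2 expression of -1.68, -1.44 and -0.81 on the 7d arrays and -2.78, -2.72 and -2.99 on the sham arrays. It was higher in 7d by 2.87-fold (log2 change 1.52, SE 0.23, limma adjusted P = 0.0633) with the groups well apart. The probe ASCRP4007994, at -2.29, -2.34 and -1.05 on the 7d arrays and -2.55, -3.80 and -4.02 on the sham arrays, was higher by 2.96-fold (log2 change 1.56, SE 0.45, limma adjusted P = 0.0849), and 7d replicate 3 was its highest array. It was not called in the methods' t-test. Of the next 4 increases, 1 had a channel well above background on no array of a group, and the other 3 lay between 2.42-fold and 2.63-fold. Without sham replicate 1 the lowest of the 4 was 1.69-fold, and 3 of the 4 were called without 7d replicate 2. Decreases were larger. The probe ASCRP4005614 was lower by 8.57-fold (log2 change -3.10, SE 0.83, limma adjusted P = 0.0811), with its spot on 7d replicate 1 left out and sham replicate 3 at 5.44 against 2.80 and 2.9 on the other sham arrays. Its log2 change was -2.24 without sham replicate 3, -3.94 without 7d replicate 2, and -2.26 and not called without 7d replicate 3, and it was not called in the methods' t-test. The next 4 lay between 5.58-fold and 6.29-fold lower. In all 4 sham replicate 3 was the highest array, and without it they lay between 2.7-fold and 3.89-fold lower, while 3 of the 4 were called without 7d replicate 3. For Fam135a the fit gave a log2 expression change of -5.55 from the same 3 spots as its level, -6.14 without 7d replicate 2, -4.97 without 7d replicate 3 and -3.22 in the deposited table.

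Level and expression are both computed from the IP and Sup signals and are not independent measures. By construction, a change in Sup alone moves them in opposite directions. Both were called for 54 circRNAs (0.471%). Of these, 27 were hypermethylated and lower in expression, 16 hypomethylated and higher, 6 hypermethylated and higher, and 5 hypomethylated and lower. The named ones among them were the circRNAs of Creb3l3, Itgbl1, Acly and Fam135a in the first class, those of Sytl5, Fam126b and Mid1 in the second, and that of Prdm10, with IP near background in 7d, in the last. Of the 54, 5 had a group with no IP well above background. The count was 249 without sham replicate 1, 24 without 7d replicate 3 and 13 in the methods' t-test.

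**Figure D3:**
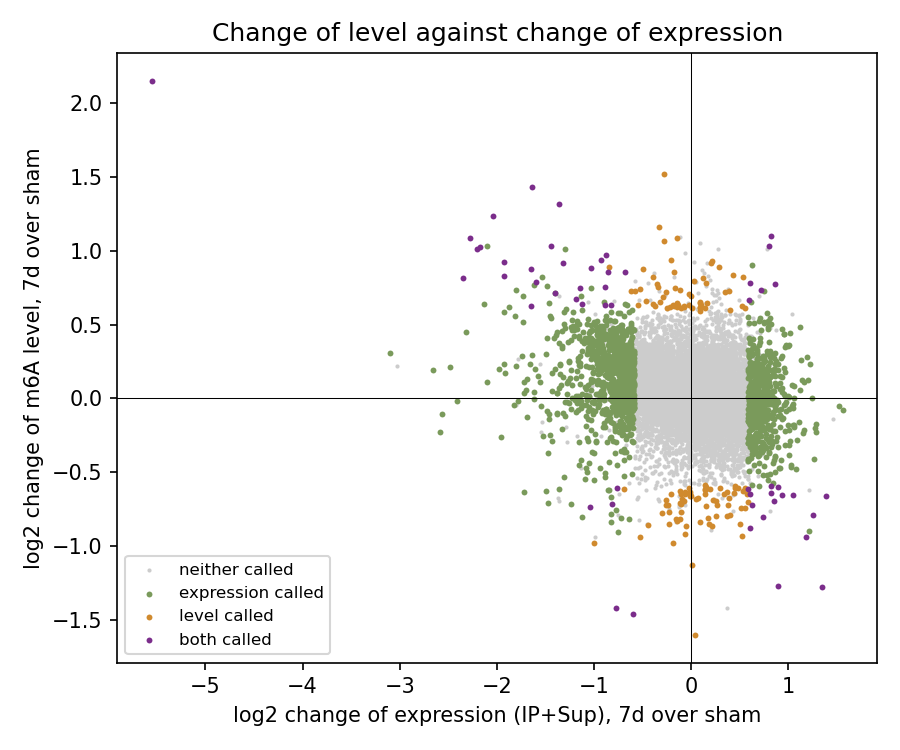
Each point is a tested circRNA, with the log2 change of expression (horizontal axis) and of the m6A level (vertical axis) in 7d over sham, colored by which of them was called. Most of the 54 called in both lie at upper left (27) and lower right (16), and the point farthest to the left, at -5.55, is the Fam135a circRNA with 3 spots left out.

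The named circRNAs were also grouped by the function of the host gene, and their counts stand beside the shares of all tested circRNAs, which were 0.794% hypermethylated, 0.785% hypomethylated, 5.62% higher and 8.99% lower. The lists were made on these arrays, so no count or median describes its host group as a whole. Of chromatin and transcription hosts, 6 of 8 were tested, with 1 hypermethylated (Creb3l3) and with lower expression for Creb3l3 and Kat6a. The hypomethylation of Prdm10 and Cdk8 and the lower expression of Prdm10 belong to circRNAs that passed the filter only through sham. Of hosts for RNA handling, protein turnover and protein modification, 6 of 11 were tested, with 1 hypermethylated (Uggt2), 1 hypomethylated (Nln) and 2 lower (Uba6 and Mtrf1). Of synaptic, adhesion and excitability hosts, 9 of 10 were tested, with 1 hypermethylated (Itgbl1), 2 hypomethylated (Sytl5 and Dtnb), 1 higher (Sytl5) and 2 lower (Itgbl1 and Glra2).

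Trafficking, signaling and cytoskeleton hosts gave 14 tested circRNAs of 18, with 2 hypomethylated (Fam126b and Mid1), 2 higher (Fam126b and Mid1) and with lower expression for Bmper and Dopey1. The hypermethylation and lower expression of Fam135a rest on 1 sham array, and its level call was lost in the deposited table. Of metabolism and cell cycle hosts only Acly was tested. All 5 circRNAs of non-coding and repeat-derived hosts were tested, none was called in the level and 1 in expression (DQ715306). Among these, the circRNA of Malat1, a nuclear long non-coding RNA, had levels of 42.9%, 44.8% and 27.5% on the 7d arrays and 37.4%, 21.7% and 16.9% on the sham arrays. The values were spread within both groups, and the log2 change of 0.65 was not called (limma adjusted P = 0.833). The median log2 expression change was -0.20 for RNA and protein handling, 0.23 for synaptic hosts, -0.38 for trafficking hosts and 0.16 for non-coding hosts, against -0.02 over all tested circRNAs. The median log2 level changes in the same order were -0.01, -0.10, -0.18 and 0.24, against 0.04. For chromatin and transcription hosts the medians were -0.66 in expression and -0.17 in level. These include Prdm10 and Cdk8, which passed the filter only through sham, and the trafficking medians include Fam135a, which rests on 1 sham array. As the circRNAs were listed for level changes on the arrays of this series, the medians describe the listed circRNAs only.

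The arrays also carry 50 probes for linear mRNAs, with 10 spots each, of which 46 have a gene symbol in RefSeq (GRCm38.p6). They were fitted on their own. Because RNase R had been used, their values are of linear RNA that was left after digestion and not of gene expression in the cortex. Expression was lower in 7d for 11 of the 50 and higher for none at the same thresholds, although 3 of the 11 had all spots well above background on no array and 5 on all 6, 7 probes had an adjusted P below 0.05, and the median log2 change was -0.30. Sham replicate 3 was the highest sham array for all 11 of the lower probes and for 38 of the 50. Without it 6 probes were lower, the median log2 change was -0.18, and 8 probes had a limma adjusted P below 0.05. That number was 7 without sham replicate 1 and 6 without sham replicate 2. Without any single one of the 7d arrays, no probe (0) had a limma adjusted P below 0.05. Among the lower ones was Cpt1a, which carries fatty acids into mitochondria, at -5.47, -5.37 and -5.38 on the 7d arrays and -4.97, -4.76 and -4.38 on the sham arrays (all spots well above background on 1 array, log2 change -0.70, limma adjusted P = 0.0465). Its log2 change was -0.54 without sham replicate 3, under the fold threshold (limma adjusted P = 0.0369). Apoe, the main lipid carrier of the brain, differed little, at 0.66, 0.50 and 0.81 on the 7d arrays and 0.60, 0.75 and 0.66 on the sham arrays (log2 change -0.01, limma adjusted P = 0.971). Mbp, a myelin protein of oligodendrocytes, was the only cell type marker of the lists used here with a probe, at -3.80, -3.48 and -2.88 on the 7d arrays and -3.41, -4.29 and -4.23 on the sham arrays. Its log2 change was 0.59 (limma adjusted P = 0.157) and the groups overlapped, so the cell makeup of the samples was not tested.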

How the data were processed

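The scanner files give intensity values of both channels, deposited by the authors from Agilent Feature Extraction 11.0.1.1 as processed signals, which the software had background-subtracted, detrended and dye-normalized (protocol for 2-color arrays, per the file headers). The deposited log2 values were made by the authors from these by subtracting 1 constant per channel and array. The constants equal the mean log2 signal of 10 of the 102 spike-in probes, which were found from the constants, to within 2.13e-11. Other values taken from the files are flags for outlier spots, saturation and signal well above background, as deposited. Log2 processed signals minus these constants were fitted with limma 3.58.1 in R 4.3.3 (jsonlite 2.0.0), with Python 3.11.15, pandas 2.3.3, numpy 2.4.6, scipy 1.17.1 and matplotlib 3.10.9 for summaries and figures, on the 6 arrays, with no covariate. Outlier spots were left out, which left 69 values missing in 55 tested circRNAs. Saturation affected no circRNA. The ratio of median intensity to median local background in IP was 2.1, 2.14 and 2.0 on the 7d arrays and 2.43, 2.34 and 2.29 on sham. The median IP background was 20, 21 and 22 on the 7d arrays and 15, 16 and 17 on sham. Neither overlapped between the groups. The circRNA probes with IP well above background did overlap in number, at 11255, 11694 and 11330 in 7d and 11394, 11039 and 11867 in sham. Whether the background bears on the dim IP signals was not tested. In Sup the ratio ran from 3.3 to 4.65. The main processing, after the study's methods, differs from normexp with an offset of 50, used in earlier work on these data, because that offset exceeds the median intensity minus background in 11 of 12 channels, all but Sup on sham replicate 3.

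All 60 entries of the study's top lists, 56 names, each matched 1 probe by fold change and P recomputed as in its methods (relative tolerance 0.0001 and 0.001), and 2 names shared a probe. Probes without a name are given by identifier, at most 2 in each direction. Named were the 20 circRNAs listed for 7d against sham, the 5 highest level increases and decreases and the 6 highest expression increases and decreases among called circRNAs with separate groups, the named ones (6 of 10) among the 5 highest level changes in each direction of those called in both, and the other listed circRNAs that were called. Malat1 and the mRNAs were picked as examples after their values were seen, and leaving out arrays in the fit of the mRNA probes was chosen after seeing the data. The members and lists were chosen with earlier results of these data known. A fold of a circRNA with no IP well above background in a whole group is a bound, with each IP signal of that group set to the higher of its own value and the lowest signal well above background on that array, and the other group's IP taken as measured. Where IP of the other group or Sup of either group was dim on some arrays, it was taken as measured. The bound then holds only as far as these signals do. For Larp4b, whose Sup was dim on all 7d arrays, that Sup was raised likewise, which lowers its 7d level. The processing was tested on simulated data. The alternatives were 5 other scalings or background corrections, 2 filters, the deposited table, the methods' t-test, the fit of all 9 arrays, Benjamini-Hochberg adjustment, replicate numbers as blocks, and leaving out each array. For 7d replicates 2 and 3 and sham replicate 3 the title and the description give different replicate numbers, and the titles were used.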

Additional observations from a re-analysis of the deposited data

How the results depend on the processing

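With the deposited table, in which the outlier spots are kept, and with the fit of all 9 arrays, each count was within 1.5 times the value in the report. In the fit of the 6 arrays given in the report, hypermethylated and hypomethylated circRNAs numbered 91 and 90, and by limma 0 of either kind, 0 of higher or lower expression and 0 of both passed Benjamini-Hochberg adjustment, while in expression 257 passed in the fit of all 9 arrays, 273 with all spike-in probes, 598 with centered arrays, 530 after quantile normalization, 293 with the filter on all 6 arrays, 42 after normexp with an offset and 3 in the methods' t-test. Hypermethylated counts outside 1.5 times that value were 33 after within-array loess, 45 after normexp with an offset of 50, 564 after normexp without an offset, 55 with the filter on all 6 arrays, 248 without a filter and 37 in the methods' t-test. Hypomethylated counts were 177 with centered arrays, 2 and 3 after normexp with and without an offset, 52 with the filter on all 6 arrays, 156 without a filter and 55 in the methods' t-test. Higher expression was called for 983 circRNAs with all spike-in probes, 45 and 259 after normexp with and without an offset, 425 with the filter on all 6 arrays and 389 in the methods' t-test. Lower expression was called for 448, 676 and 573 circRNAs after normexp with an offset, after normexp without one and in the methods' t-test, and both measures for 21, 12 and 13. The cause was not tested, except that fewer circRNAs (9475) or more entered with the other filters. The median level difference was 6.80 percentage points after normexp without an offset, 4.35 with one, and 0 by construction with centered arrays. Normexp moved the median log2 change of all tested circRNAs to 0.15 with and 0.24 without an offset for the level, and to 0.23 and 0.22 for expression.

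Leaving out 1 array at a time gave 46 to 511 hypermethylated, 79 to 168 hypomethylated, 316 to 1255 higher, 645 to 1365 lower and 24 to 249 circRNAs called in both, and a median level difference of -0.734 to 3.68 percentage points. Lower mRNA probes numbered 6 to 15 (11 in the report), the lowest without sham replicate 3. The ends were reached without sham replicate 3 or 1 for hypermethylation and without 7d replicate 3 or 1 for higher expression.

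Arrays of the groups with the same number in their titles did not deviate together. For replicates 1, 2 and 3 the correlations were -0.10, -0.08 and -0.03 in the level and -0.40, -0.30 and -0.45 in expression. No array correlated best with its own number. The numbers of the descriptions, which differ for some samples, were not tested as pairs. With the replicate block, 98 circRNAs were hypermethylated, 113 hypomethylated, 577 higher, 966 lower and 57 called in both.

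Of 30 log2 changes of named circRNAs and probes, 6 kept their direction and side of the threshold under every alternative that gave a value. After normexp the level change reversed for Prdm10 (0.24 with an offset, 0.0471 without), Cdk8 (0.14 and 0.12), Nln (0.16 and 0.21) and Fam126b (0.0480 and 0.00230). With an offset the expression change reversed for Prdm10 (0.13) and Dopey1 (0.13). None of these reversed values was called, and the cause was not tested. Fam135a has no value without sham replicate 3. IP signals close to background limit the levels of dim circRNAs, and the dye normalization inside the processed signals could not be undone here.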
